A study of Saccharomyces cerevisiae with 6 samples.

Results

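The genes described here encode the enzymes and regulators with which budding yeast makes arginine, lysine, histidine and the aromatic amino acids tryptophan, tyrosine and phenylalanine, together with GCN4, the transcription factor that activates most of them. They were chosen by gene symbol from a list of 38, and 34 had a named probe with a value on all 3 arrays, of 5693 features tested in all. These are 6 arginine genes, 8 lysine genes, 6 histidine genes, 13 aromatic genes and GCN4. ARG5,6, ARG7, HIS3 and ARO1 matched no named probe and were not analysed here. The study treated cultures of Saccharomyces cerevisiae strain S288C, growing exponentially in YPD medium at 25 C, with 35 ppm paraquat (methyl viologen dichloride) for 2 h. Their polyA RNA was labelled with Cy5. Untreated cultures of the same strain, grown in YPD at 25 C to the same density and then for a further 2 h without the compound, were labelled with Cy3. Treated and untreated cDNA were hybridised together on 2-colour arrays, 1 array for each of 3 independent biological samples, with a high and a low power scan of every array.

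Each value is a log ratio of the 2 channels, taken as the base 2 logarithm of paraquat over untreated. That direction is likely, since the labels list the treated channel ahead of the control, but neither it nor the base is stated in the sources used here. With the opposite direction every sign would turn. Because paraquat cultures carried Cy5 on every array, dye and treatment cannot be told apart. A ratio gives no level, so strain markers could not be checked, and less RNA per cell cannot be told apart from fewer cells that make it.

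Paraquat takes electrons from cellular reductants and passes them to oxygen, which makes superoxide. Amino acid synthesis draws heavily on NADPH, and some of its enzymes need iron-sulfur clusters, which superoxide damages. When an amino acid runs short, uncharged tRNA activates the kinase Gcn2, and translation of GCN4 mRNA increases through short open reading frames in its leader. Gcn4 protein then activates synthesis genes of many amino acids at once, a response called general amino acid control. Each pathway also has its own signals, such as Lys14 for lysine, the ArgR complex for arginine, and Bas1, which some histidine genes share with purine synthesis. The cultures grew in rich medium, which supplies amino acids.

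No gene of these pathways passed the test. In limma, with Benjamini-Hochberg adjustment over all 5693 features, 0 of 34 had an adjusted p under 0.05, against 0.0351% of all features, and the smallest adjusted p was 0.295, for TRP5. At an unadjusted limma p under 0.05 there were 4 of 34 (11.8%), namely TRP5, ARO9 and ARG2 below 0 and ARO7 above 0. The same level was met by 10.8% of all features, so the members' share was near the background. In 10 of 34 genes (29.4%) the 3 arrays shared a sign, against 32% of all features. Of those 10, LYS20, HIS2, HIS6 and ARO7 were above 0 (16% of all features were above 0 on every array) and ARG2, LYS9, TRP3, TRP5, ARO9 and GCN4 below (also 16%).

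The means and their moderated intervals describe the size of the ratios on these arrays. The 34 means lay between -0.63 and 0.42, with a median of -0.0243 against -0.00654 for all tested features. Of the 34, 15 had a mean above 0 and 19 below. In 25 the mean was within 0.25 of 0, which is 73.5% of them, against 67.4% of all features. With the spread moderated over all features, the 95% limma intervals of 33 genes lay inside 2-fold in both directions. The exception was TRP5, whose interval reached down to -1.08, a 2.11-fold lower level in paraquat cultures. The highest upper bound, 0.88 for LYS1, corresponds to 1.84-fold. The median standard error of the members was 0.198, against 0.201 over all features. These limma values draw mostly on the spread of all features, with 19.1 prior against 2 residual degrees of freedom. LYS20 and TRP1, with SDs of 0.0535 and 0.64, thus had standard errors of 0.194 and 0.225. For genes whose arrays spread widely, the intervals are narrower than their own 3 arrays alone would give.

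**Figure D1:**
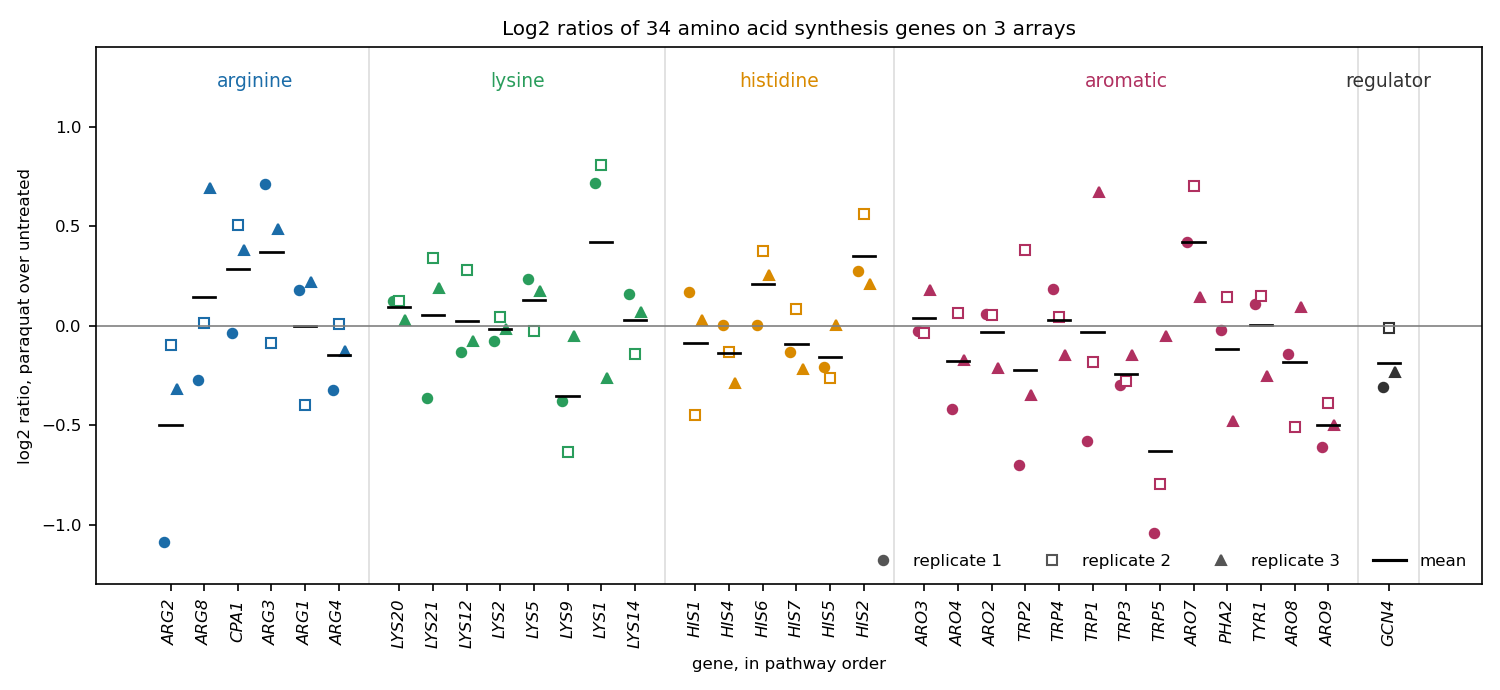
Log2 ratio of paraquat over untreated cultures (vertical axis) for each of 34 genes, grouped by pathway and ordered by step, with 1 symbol per array and a black bar at the mean. Most genes have arrays on both sides of 0, while ARO9 and TRP3 sit below 0 and ARO7 and HIS2 above 0 on every array.

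Arginine is made from glutamate through ornithine in mitochondria and then through citrulline and argininosuccinate in the cytosol. ARG2, which encodes the acetylglutamate synthase of the first step, had log2 ratios of -1.09, -0.0985 and -0.32 on replicates 1, 2 and 3. All were below 0, but replicate 1 stood far lower than the other arrays. The mean was -0.50 ± 0.52 (SD, n = 3 arrays; limma adjusted p = 0.404), and -0.21 without replicate 1. Probe numbers may follow position on the array, and with an additive trend over their digits taken out of each array (the probe-number trend) the ARG2 mean was -0.29. ARG8, the acetylornithine aminotransferase gene of the same mitochondrial part, had ratios of -0.27, 0.0104 and 0.69, so its arrays lay on both sides of 0. Its mean was 0.14 ± 0.50.

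The later arginine steps were scattered around 0. CPA1, the small subunit of the carbamoyl phosphate synthetase that serves arginine, had ratios of -0.0356, 0.51 and 0.38 with a mean of 0.28 ± 0.28 (SD, n = 3), 0.44 without replicate 1 and 0.17 without replicate 2. Its 2 probes carried identical values and were counted once. ARG3, the ornithine carbamoyltransferase gene, had 0.71, -0.0872 and 0.49, with a mean of 0.37 ± 0.41 (limma adjusted p = 0.55). Replicate 2 was the array that departed for ARG3, and the mean was 0.60 without it and 0.20 without replicate 1. With the probe-number trend removed the ARG3 mean was 0.54, the 1 member with an unadjusted limma p under 0.05 in that setting. ARG1, the argininosuccinate synthase gene, had 0.18, -0.40 and 0.22, which average to nearly 0 (SD 0.35, interval -0.42 to 0.42). ARG4, the argininosuccinate lyase gene of the last step, had -0.32, 0.00848 and -0.13, with a mean of -0.15 ± 0.17. ARG2, ARG3 and ARG8 had a value only in the high power scan of each array.

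As a list, 3 of the 6 measured arginine genes had a mean above 0 and 3 below. The median of their means was 0.0719, against -0.00654 for all features. The array medians were -0.15, -0.0394 and 0.30 on replicates 1, 2 and 3, so the list lay lowest on one array and highest on another. Among the arginine list, 0 genes had an adjusted limma p under 0.05, and only ARG2 had an unadjusted p under 0.05.

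Yeast makes lysine by the aminoadipate route, which starts from oxoglutarate and acetyl-CoA. LYS20 and LYS21 encode homocitrate synthase isozymes of the first step. LYS20 had ratios of 0.12, 0.12 and 0.029 and LYS21 had -0.37, 0.34 and 0.19, so the arrays of LYS20 lay closer together than those of LYS21. On replicate 3 the high and low power scans of LYS20 were 0.17 and -0.11, of opposite sign. The means were 0.0908 ± 0.0535 and 0.0543 ± 0.37 (SD, n = 3). On the log2 scale LYS20 minus LYS21 was 0.49, -0.22 and -0.16, a mean difference of 0.0364 ± 0.39 with no common sign. The isozyme genes resemble each other closely, and whether their probes shared signal was not tested. LYS12, the homoisocitrate dehydrogenase gene, had -0.13, 0.28 and -0.0767, with a mean of 0.0246 ± 0.22.

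The later lysine steps held the widest values of the pathway. LYS2, the aminoadipate reductase gene, was among the members closest to 0, at -0.078, 0.0433 and -0.0185. LYS5, whose product attaches the phosphopantetheine arm that Lys2 needs, had 0.23, -0.0256 and 0.17, with a mean of 0.13 ± 0.14. LYS9 encodes the saccharopine dehydrogenase that forms saccharopine, and its ratios were -0.38, -0.64 and -0.0519. All were below 0, although the low power scan of replicate 3 was at 0.0059, and the mean was -0.36 ± 0.29 (SD, n = 3; limma adjusted p = 0.554), or -0.21 without replicate 2. LYS1 encodes the saccharopine dehydrogenase that releases lysine, and its ratios were 0.72, 0.81 and -0.26. Replicates 1 and 2 were high and replicate 3 was below 0, with a mean of 0.42 ± 0.59 (limma adjusted p = 0.516). Without replicate 3 the LYS1 mean was 0.76, and without replicate 2 it was 0.23. The high and low power scans of LYS1 on replicate 1 were 0.21 and 1.22.

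LYS14, the activator of lysine genes that senses aminoadipate semialdehyde, had 0.16, -0.14 and 0.0693 and a mean of 0.0276 ± 0.15. Of the 8 lysine genes 6 had a mean above 0 and 2 below, with a median of 0.041. Array medians were 0.0222, 0.0821 and 0.00523, so the list sat near 0 on each array. In the lysine list 0 genes met an unadjusted limma p under 0.05.

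**Figure D2:**
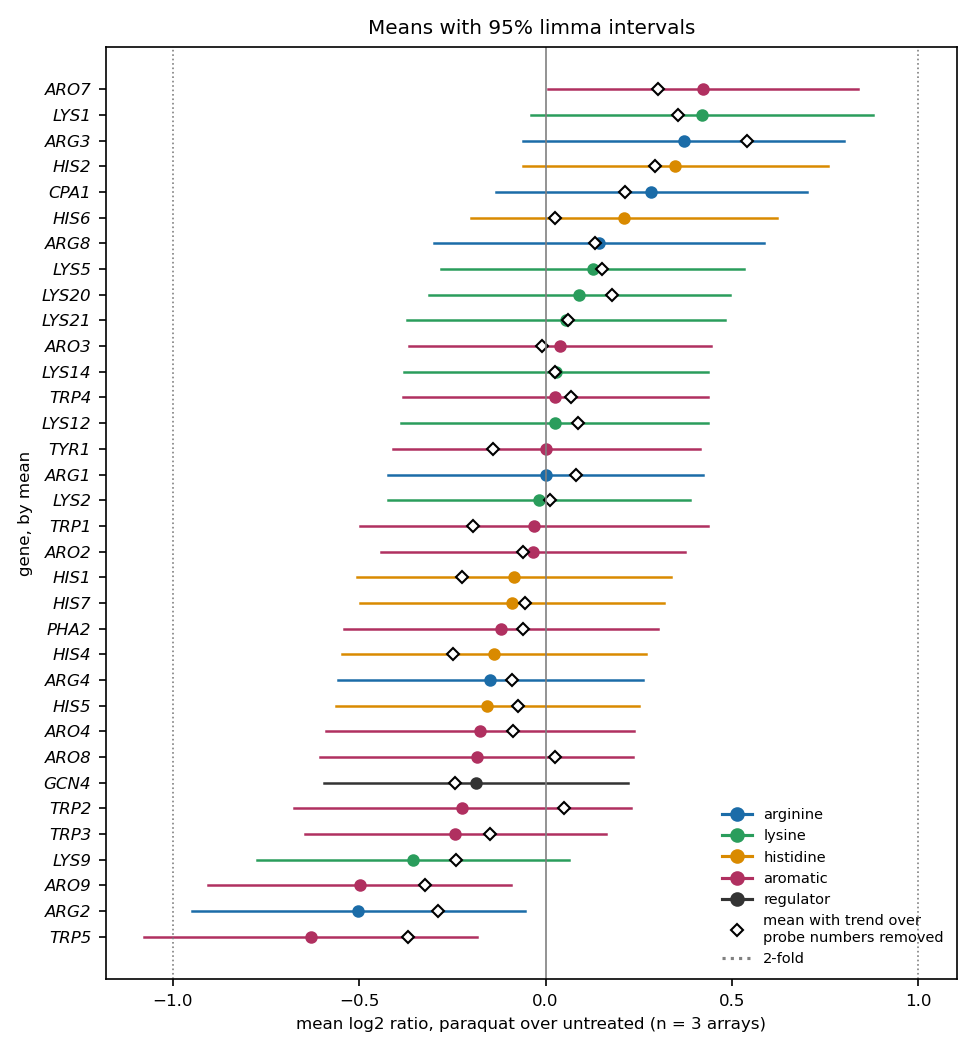
Mean log2 ratio of paraquat over untreated (filled circles, n = 3 arrays) with 95% limma intervals for the 34 genes, ordered by mean, with open diamonds for the mean after removal of the probe-number trend. The intervals of ARO7, ARO9, ARG2 and TRP5 leave out 0, and the diamonds of these 4 genes lie nearer to 0 than their circles.

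Histidine is built from phosphoribosyl pyrophosphate and ATP, and its pathway returns an intermediate to purine synthesis. HIS1 encodes the ATP phosphoribosyltransferase that feedback inhibition controls, and its ratios were 0.17, -0.45 and 0.0274. Its mean was -0.0855 ± 0.32 (SD, n = 3). HIS4, a multifunctional enzyme of early and final steps and a classical reporter of Gcn4, had 0.00328, -0.13 and -0.29, with a mean of -0.14 ± 0.15 (interval -0.55 to 0.27). HIS6, the isomerase gene, had 0.00118, 0.37 and 0.26 and a mean of 0.21 ± 0.19. It was above 0 on all 3 arrays, on replicate 1 by a margin far below the spread, and its mean was 0.026 with the probe-number trend removed. HIS7, whose enzyme splits off the purine precursor, had -0.13, 0.0818 and -0.22, averaging -0.0905 ± 0.16.

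HIS5, the histidinol-phosphate aminotransferase gene, had -0.21, -0.27 and 0.00487, with a mean of -0.16 ± 0.14. HIS2, the histidinol phosphatase gene, was the highest of the pathway, at 0.28, 0.56 and 0.21. Every array was above 0, with a mean of 0.35 ± 0.19 (limma adjusted p = 0.554) and 0.29 with the trend removed. The high and low power scans of HIS2 on replicate 3 were -0.0031 and 0.42, of opposite sign. Of the 6 histidine genes 2 had a mean above 0 and 4 below, and the median of means was -0.088. The array medians were 0.00223, -0.0246 and 0.0161, all nearer to 0, because different genes stood in the middle on different arrays. In the histidine list 0 genes met an unadjusted limma p under 0.05.

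The aromatic amino acids share the shikimate route to chorismate, where the tryptophan branch parts from that to tyrosine and phenylalanine. ARO3 and ARO4 encode the entry enzymes (DAHP synthases) inhibited by phenylalanine and by tyrosine. ARO3 had ratios of -0.0269, -0.035 and 0.18, with a mean of 0.039 ± 0.12 (SD, n = 3). ARO4 had -0.42, 0.0616 and -0.17, with a mean of -0.18 ± 0.24. ARO3 minus ARO4 was 0.39, -0.0966 and 0.35 on the log2 scale, a mean difference of 0.22 ± 0.27 that changed sign on replicate 2. ARO2, the chorismate synthase gene, had 0.0562, 0.0528 and -0.21, and a mean of -0.0348 ± 0.15. ARO2, ARO3 and ARO4 thus stayed within 0.25 of 0 in their means, while ARO1 matched no named probe.

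The tryptophan branch held the lowest member. TRP5 encodes tryptophan synthase, and its ratios were -1.04, -0.79 and -0.0526. Replicates 1 and 2 were low and replicate 3 was close to 0. The mean was -0.63 ± 0.51 (SD, n = 3 arrays), 1.55-fold lower in paraquat cultures, rank 63 from the lowest of 5693, with a limma adjusted p of 0.295. Leaving out replicates 1, 2 and 3 in turn gave -0.42, -0.55 and -0.92. On replicate 1 its high and low power scans were -0.36 and -1.72, the widest gap between scans of any member, and the TRP5 mean was -0.40 on high power scans alone and -0.86 on low power scans alone. With the probe-number trend removed it was -0.37. TRP3, which encodes a bifunctional protein of anthranilate synthase and indole-glycerol phosphate synthase, had -0.30, -0.28 and -0.15. Its arrays were close together, with a mean of -0.24 ± 0.0813 (limma adjusted p = 0.715). The scans within an array lay farther apart. The high and low power scans of TRP3 were -0.51 and -0.049 on replicate 2 and -0.0042 and -0.29 on replicate 3. On replicate 1 it had the high power scan alone.

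The other tryptophan genes had arrays on both sides of 0. TRP2, the partner of Trp3 in anthranilate synthase, had -0.70, 0.38 and -0.35, with a mean of -0.22 ± 0.55. TRP1, the phosphoribosylanthranilate isomerase gene, had -0.58, -0.18 and 0.67 and a mean of -0.0307 ± 0.64, the largest SD among the 34. TRP4, the anthranilate phosphoribosyltransferase gene, had 0.18, 0.0433 and -0.15 and a mean of 0.0264 ± 0.16. Of the 5 tryptophan genes 4 were below 0 on replicate 1, 3 on replicate 2 and 4 on replicate 3, and the branch had medians of -0.58, -0.18 and -0.15 on these arrays. The median of their means was -0.22, and -0.0514 without replicate 1.

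In the other branch ARO7, the chorismate mutase gene, had the highest mean of the members by a narrow margin over LYS1, at 0.42, 0.70 and 0.15. ARG3 was highest on high power scans alone, with the probe-number trend removed and without replicate 2. LYS1 was highest on low power scans alone and without replicate 3, and CPA1 without replicate 1. All arrays of ARO7 were above 0, with a mean of 0.42 ± 0.28 (1.34-fold, interval 0.0055 to 0.84, limma adjusted p = 0.463) and 0.30 with the trend removed. The ARO7 mean was 0.25 on high power scans alone and 0.59 on low power scans alone. TYR1, the prephenate dehydrogenase gene that leads to tyrosine, had 0.11, 0.15 and -0.25. PHA2, the prephenate dehydratase gene that leads to phenylalanine, had -0.0204, 0.14 and -0.48, with a mean of -0.12 ± 0.32. Both were lowest on replicate 3. For TYR1 this rested on the low power scan of that array, at -0.50. The high power scans of TYR1 were -0.15, 0.11 and -0.0069 on replicates 1, 2 and 3.

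ARO8 and ARO9 encode aromatic aminotransferases, of which Aro8 serves mainly synthesis and Aro9 is induced by aromatic amino acids through Aro80 and starts their breakdown. ARO9 had -0.61, -0.39 and -0.50, the most even values among the genes with a mean beyond 0.25. Its mean was -0.50 ± 0.11 (SD, n = 3 arrays), 1.41-fold lower in paraquat cultures, with a limma adjusted p of 0.358. Its mean was -0.32 with the probe-number trend removed, and there, without replicate 1, without replicate 3 and against 1.2-fold it did not meet an unadjusted limma p under 0.05. Without variance moderation ARO9 and TRP3 were the members that met it. ARO8 had -0.14, -0.51 and 0.0947, with a mean of -0.18 ± 0.30. ARO8 minus ARO9 was 0.47, -0.12 and 0.59, a mean difference of 0.31 ± 0.38.

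ARO10, whose product decarboxylates aromatic oxo acids after the aminotransferase step, was also below 0 on every array, at -0.86, -0.51 and -0.19 (mean -0.52 ± 0.34, limma adjusted p = 0.358). ARO80, the activator of ARO9 and ARO10, had -0.24, -0.0236 and -0.22, with a mean of -0.16. ARO80 is named here after its values were seen, as is PDC5, which completes the list of aromatic amino acid use. All 3 genes of that list lay below 0 on every array, as 16% of all features did, and 0 passed over all genes. The list median was -0.24, or -0.0866 with the probe-number trend removed and -0.13 without replicate 1. Over the 13 measured aromatic synthesis genes, 4 means were above 0 and 9 below, with a median of -0.12 and array medians of -0.14, 0.0433 and -0.15. Of these, 1 above 0 and 2 below met an unadjusted limma p under 0.05, where 5.48% and 5.29% of all features did.

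**Figure D3:**
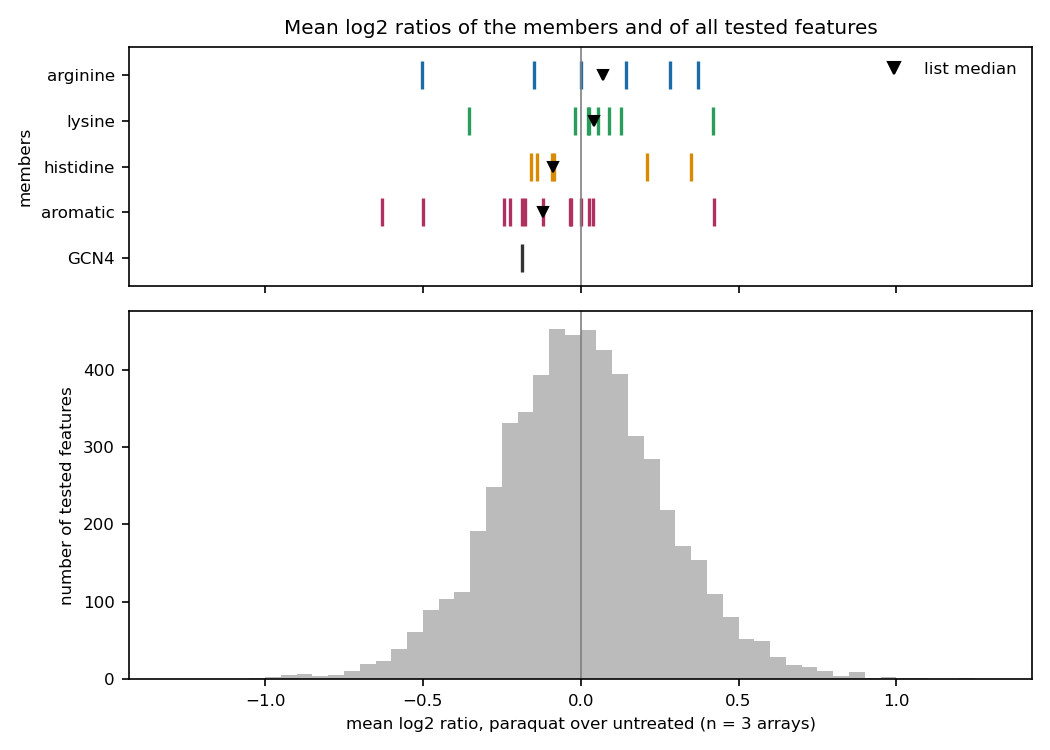
Mean log2 ratios of paraquat over untreated (horizontal axis, n = 3 arrays) for the members by pathway as ticks with list medians as triangles (upper panel), and for all 5693 tested features as a histogram (lower panel). The 34 members lie between -0.63 and 0.42, inside the spread of the histogram.

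GCN4 itself had ratios of -0.31, -0.012 and -0.24. All were below 0, with replicate 2 close to it, and the mean was -0.19 ± 0.16 (SD, n = 3; interval -0.59 to 0.22, limma adjusted p = 0.785). On replicate 3 the value came from the low power scan alone. Since GCN4 is controlled mainly in translation, its mRNA ratio does not measure Gcn4 protein.

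Genes around these pathways were described as lists, with none called over all genes. Of 13 measured general control genes, which encode Gcn2, its helpers, initiation factors that it acts on and factors that degrade Gcn4, 5 means were above 0 and 8 below, with a median of -0.0251. The highest was PCL5, the cyclin that directs Gcn4 to degradation, at 0.42, 0.64 and 0.29. The lowest was GCN20, which acts with Gcn1 on Gcn2, at -0.57, -0.29 and -0.79 (mean -0.55 ± 0.25, limma adjusted p = 0.304). In the arginine neighbours, which include the ArgR regulators and arginine breakdown, 5 of 9 means were above 0. ARG80 was highest at 0.43 ± 0.27, and CAR2, the ornithine aminotransferase gene of arginine breakdown, was lowest at -0.56 ± 0.79, with -1.27, -0.69 and 0.29 on its arrays. Of the 3 measured lysine neighbours, LYS4, the homoaconitase gene with an iron-sulfur cluster, was lowest and IDP1, a mitochondrial isocitrate dehydrogenase gene, highest at 0.0902. The 8 precursor genes of phosphoribosyl pyrophosphate and erythrose phosphate supply had a median of -0.0331, from TKL2 at -0.17 to RKI1 at 0.40.

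Gcn4 targets of other amino acid pathways had a lower median than the members. Of 24 such genes 22 had a mean below 0, with a median of -0.21 and array medians of -0.24, -0.0677 and -0.25. Among them 7 below 0 and 0 above met an unadjusted limma p under 0.05, where 5.29% and 5.48% of all features did, and 0 passed over all genes. The lowest was SER3, a phosphoglycerate dehydrogenase gene of serine synthesis, at -0.51, -1.20 and -0.63 (limma adjusted p = 0.152), and the highest was LEU3 at 0.10. The Bas1 list holds purine synthesis genes with MTD1, SHM2 and the regulators BAS1 and PHO2. Of its 13 measured genes 12 had a mean below 0, with a median of -0.44. BAS1 was among the 12, at -0.0377 with arrays on both sides of 0. The median of all 6 measured histidine genes was -0.088, and which of them Bas1 controls was not analysed here. In the Bas1 list too 7 genes below 0 and 0 above met an unadjusted limma p under 0.05, and 0 passed over all genes. ADE13 was lowest at -0.88 (limma adjusted p = 0.102) and PHO2, the partner of Bas1, highest at 0.00654. On each array ADE13 had a value only in the low power scan and PHO2 only in the high power scan. On replicates 1, 2 and 3 the medians of the Bas1 list were -0.18, -0.67 and -0.66, where those of the histidine list stayed within 0.25 of 0. No test of the difference between lists was made.

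**Figure D4:**
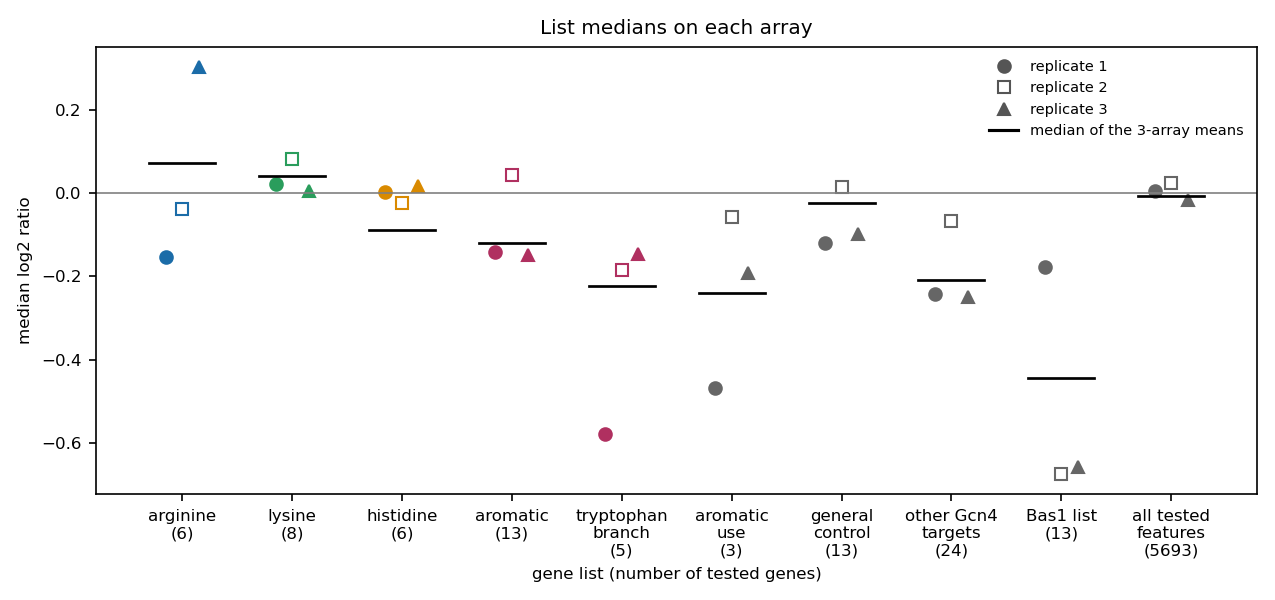
Median log2 ratio of paraquat over untreated on each array (symbols) for the 4 synthesis lists, the tryptophan branch, the neighbouring lists and all tested features, with the number of genes in brackets and a bar at the median of the 3-array means. The medians of lysine and histidine stay near 0 on every array, while those of the tryptophan branch, the other Gcn4 targets and the Bas1 list are below 0 on every array.

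Agreement between arrays was low for these genes as for the whole table. Across the 34 members, which share arrays and are not independent, Pearson r was 0.434 for replicates 1 and 2, 0.225 for 1 and 3, and 0.0316 for the remaining pair. Across all 5693 features the same pairs gave 0.164, 0.217 and 0.0254. High and low power scans of an array agreed better, with r of 0.701, 0.843 and 0.743 over the 23, 28 and 30 members that had both. In 81 such pairs of scans the median gap was 0.149, and 59 pairs had the same sign. The gap exceeded 0.5 in 6 pairs, with TRP5, LYS1, TRP1, ARO7 and TYR1 on replicate 1 and PHA2 on replicate 2. A value was present in all 6 scans for 19 members, in 5 for 12 and in 3 for 3.

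**Figure D5:**
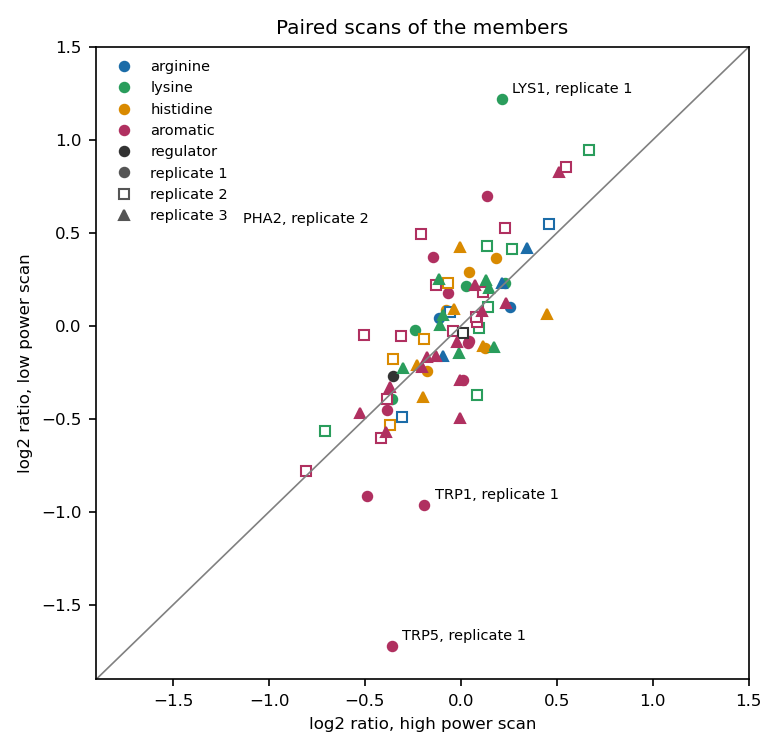
Log2 ratio in the low power scan (vertical axis) against the high power scan (horizontal axis) of the same array, 1 symbol per member and replicate, with the line of equality. Most of the 81 points follow the line, and TRP5 and LYS1 on replicate 1 lie farthest from it.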

How the data were processed

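The deposited values are log ratios, taken as log2, that the authors made by LOWESS normalization, using spots flagged 0, per the labels. The log base and the direction are stated in no source used here. Scan medians were 0.0051 (high power) and -0.0276 (low power) on replicate 1, 0.0175 and 0.0222 on replicate 2, and -0.0119 and -0.031 on replicate 3. Among 6912 probes, 5513 had 1 gene symbol, 0 several and 1399 none in the platform annotation, and for 5508 the gene identifier gave the current symbol in RefSeq assembly R64. Probes with identical values (to 9 decimals) were joined in 78 sets, and 761 without any value were left out. Scans were averaged per array, and 5693 features measured on every one of the 3 arrays were fitted in R 4.3.3 with limma 3.58.1 (lmFit and eBayes against 0, two-sided, 19.1 prior degrees of freedom, Benjamini-Hochberg over all features, threshold 0.05). The fit was also run on simulated independent normal values without a probe-number trend, which cannot show how it performs on these arrays. Each array holds a treated and an untreated culture, so no block was needed.

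The members and lists were chosen with earlier results of these data known. The naming rule (GCN4, the 3 highest and 3 lowest of each pathway, an unadjusted p under 0.05, the same sign on every array, and the isozyme pairs) took 28 members. The other 6 were printed too, and of other lists the highest and lowest, with ARO80 and PDC5 added after their values were seen. Alternatives were each scan alone, centring, scaling, filters on missing values, removal of the probe-number trend (additive effects of its 4 digit groups), other variance settings, a test against 1.2-fold, named probes alone and leaving out each replicate. Promoter motifs and protein identities were not analysed here.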

Additional observations from a re-analysis of the deposited data

How the results depend on the processing

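Under every alternative run (up to 10 for each member, 10 for the lists, and for the calls also robust variance, no moderation, named probes alone and a 1.2-fold limit), limma called 0 members. A member without a value in the scans that a setting needs has none there, such as ARG2, ARG3 and ARG8 on low power scans. The smallest adjusted p of any member was 0.0665, for TRP5 on low power scans alone, and the largest of these smallest values was 1, against 1.2-fold. Over all features limma called 2 genes as reported, 0 with arrays centred, with arrays centred and scaled, on high power scans, without variance moderation and against 1.2-fold, 1 with the probe-number trend removed, 6 with a value on at least 2 arrays and with robust variance, 14 on named probes alone, 18 on low power scans alone, 19 with a value in all 6 scans, and 0 to 69 when 1 replicate was left out (0 without replicate 1, 69 without replicate 2 and 8 without replicate 3). At an unadjusted p under 0.05 the 613 features became 372 without moderation, 134 against 1.2-fold and 305 without replicate 1, 239 of 1978 features on low power scans and 231 of 1794 with all 6 scans, with 2, 0, 0, 3 and 3 members among them. With the trend removed 1 member, ARG3, met that level. Low power scans and the filter on all 6 scans left fewer features, of which 12.1% and 12.9% met that level, against 10.8% as reported. The cause of these changes was not tested.

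The histidine median of -0.088 was -0.13 on high power scans, -0.12 on low power scans, -0.14 with all 6 scans, -0.0639 with the trend removed and -0.0995 to -0.00267 without 1 replicate. The other 3 pathway medians moved by less than the SD of their array medians under these settings, although the arginine median ranged from -0.12 to 0.19 without 1 replicate. Medians of the tryptophan branch and the neighbouring lists, whose alternatives were added after seeing the data, ranged from -0.29 to -0.0514 for tryptophan, -0.38 to -0.16 for the other Gcn4 targets, -0.60 to -0.40 for the Bas1 list, -0.52 to -0.0866 for aromatic use and -0.0843 to -0.0128 for general control, while those of the precursors and the arginine and lysine neighbours turned sign. Of 310 member values under alternatives 279 kept their sign and 31 turned, and 19 of 34 members kept it wherever they had a value. With the trend removed ARG1 was at 0.0829, ARO3 at -0.0085, ARO8 at 0.0244, LYS2 at 0.0107, TRP2 at 0.0489 and TYR1 at -0.14. On high power scans ARG1 was at 0.0533, LYS12 at -0.0375, TRP1 at 0.00206, TRP4 at -0.0268 and TYR1 at -0.0135. TYR1 was at -0.00304 with arrays centred and -0.0128 centred and scaled, where TRP1 was at 0.00998. Without 1 replicate the range was -0.0371 to 0.11 for LYS14, -0.0483 to 0.0124 for LYS2, -0.38 to 0.24 for TRP1, -0.53 to 0.015 for TRP2, -0.0514 to 0.11 for TRP4, -0.0713 to 0.13 for TYR1, -0.11 to 0.20 for ARG1 and -0.21 to 0.0969 for HIS1. It was -0.10 to 0.10 for LYS12, -0.0888 to 0.26 for LYS21, -0.13 to 0.35 for ARG8, -0.0803 to 0.0545 for ARO2, -0.031 to 0.076 for ARO3 and -0.25 to 0.061 for PHA2.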

Other observations

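HIS7 and ARO4 are neighbouring genes on chromosome II in the R64 gene order, the 1 such pair among the members. Both were below 0 on replicates 1 and 3 and above 0 on replicate 2, at -0.13, 0.0818 and -0.22 for HIS7 and -0.42, 0.0616 and -0.17 for ARO4. On replicate 2 the high and low power scans of HIS7 were -0.068 and 0.23, so its sign there rested on the low power scan. The probe numbers of HIS7 and ARO4 differ only in the leading digit, so gene order and possible position on the array cannot be told apart here. How often other pairs share such a sign pattern was not counted. The consecutive enzymes Lys9 and Lys1 of the last lysine steps had genes at opposite ends of their list on replicates 1 and 2, with LYS9 at -0.38 and -0.64 and LYS1 at 0.72 and 0.81. On replicate 3 both were below 0, at -0.0519 and -0.26.

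The probe-number trend (additive effects of its 4 digit groups) took up 14.1% of the variance of replicate 1, 18.6% of replicate 2 and 9.85% of replicate 3. The 4 members with an unadjusted limma p under 0.05 (TRP5, ARO9, ARG2 and ARO7) had means of -0.37, -0.32, -0.29 and 0.30 with this trend removed, against -0.63, -0.50, -0.50 and 0.42 before. Whether position on the array underlies that part of their values was not tested.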
